A study of Oreochromis niloticus with 16 samples.

Results

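The 76 microRNAs (miRNAs) described here carry a name that begins with miR-n, given for hairpins of this species, and reached their highest level in an embryo or larva library of Nile tilapia (Oreochromis niloticus). They were chosen from 577 mature names, of which 174 begin with miR-n. A name had to reach 10 reads in at least 1 of 16 libraries, which 124 of the 174 did, and its highest level over the 16 libraries had to fall at 2, 3, 4, 5 or 10 days post-fertilization (dpf). The other 48 names were highest in an adult tissue, and 50 stayed under 10 reads. The level was the number of counts per 1000000 reads assigned to named miRNAs of the library (CPM), where a read that matches several loci is divided over them. The stage levels and the adult levels chose the members, so the contrast between them is given as a description with no test.

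The fish were of the Chitralada strain. Whole animals at 2 and 3 dpf carry the stage label gastrula segmentation, those at 4 dpf pharyngula, those at 5 dpf hatching and those at 10 dpf late larva. The adult libraries came from fish 6 months of age and hold white muscle, red muscle and brain of each sex, the ovary, the testis, the heart of a female, and liver and eye of mixed sex. No treatment or altered genotype is named in the labels. Each stage and each tissue of each sex is 1 library, and how many animals went into a library is not given in the sources used here. Female and male libraries of white muscle, red muscle and brain served as replicates of the tissue, so their spread also holds any difference between sexes. In such bulk libraries, fewer cells of a type and less RNA per cell cannot be told apart.

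A miRNA is cut from a hairpin precursor, whose 5p and 3p arms can each give a mature miRNA. The mature strand guides a silencing complex to messenger RNAs that pair with its 5′ seed, and lowers their translation or stability. In fish embryos, miRNAs are known to help clear maternal messenger RNAs and to take part in the patterning and differentiation of tissues. No target or function is assigned here to any of the 76, which are described by hairpin, arm and count.

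Divided totals ran from 833147 reads at 10 dpf to 11517368 in male red muscle, with a median of 2848730, so that 1 read was worth 1.20 CPM at 10 dpf and 0.0868 CPM in male red muscle. The 2 dpf library stood apart, since miR-10b-5p, encoded in a Hox cluster, held 58.6% of its reads. In the 16 libraries the trimmed mean of M-values (TMM) factor, which rescales a library by the bulk of its miRNAs, was 0.203 at 2 dpf against 3.20 at 5 dpf and 1.34 at 3 dpf. Adult tissue labels were checked by known markers, and miR-122-5p of the liver held 45.0% of the liver reads, miR-183-5p of sensory cells 55.0% of the eye reads, and miR-126-3p of endothelium 24.9% of the heart reads. The muscle list (miR-1, miR-133a, miR-133b, miR-206 and miR-499) summed to 281034 and 310649 CPM in white and 36660 and 32865 CPM in red muscle, against 545 and 291 CPM in brain. In heart it summed to 76649 CPM. The neural list (miR-124a, miR-9, miR-128 and miR-138) summed to 88261 and 70125 CPM in brain and to 310 to 959 CPM in muscle, and the gonad list (miR-202) to 1165 CPM in ovary and 12187 CPM in testis. No name matched the early embryo list (miR-430 and miR-427), so it could not be used to place the stage libraries.

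The members came from 57 hairpins, 40 as the 5p arm and 36 as the 3p arm. By CPM, 4 were highest at 2 dpf, 24 each at 3 and 4 dpf, and 12 each at 5 and 10 dpf. Of all 481 names with 10 reads in a library, 54.5% were highest at a stage, against 61.3% of the 124 n-named ones and 52.1% of the 357 conserved ones. Which stage was highest depended on the scale. With TMM factors, 58 of the 76 were still highest at a stage and 18 in an adult tissue, and of the 63 n-named miRNAs then highest at a stage, 37 were highest at 2 dpf and 17 at 3 dpf.

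**Figure D1:**
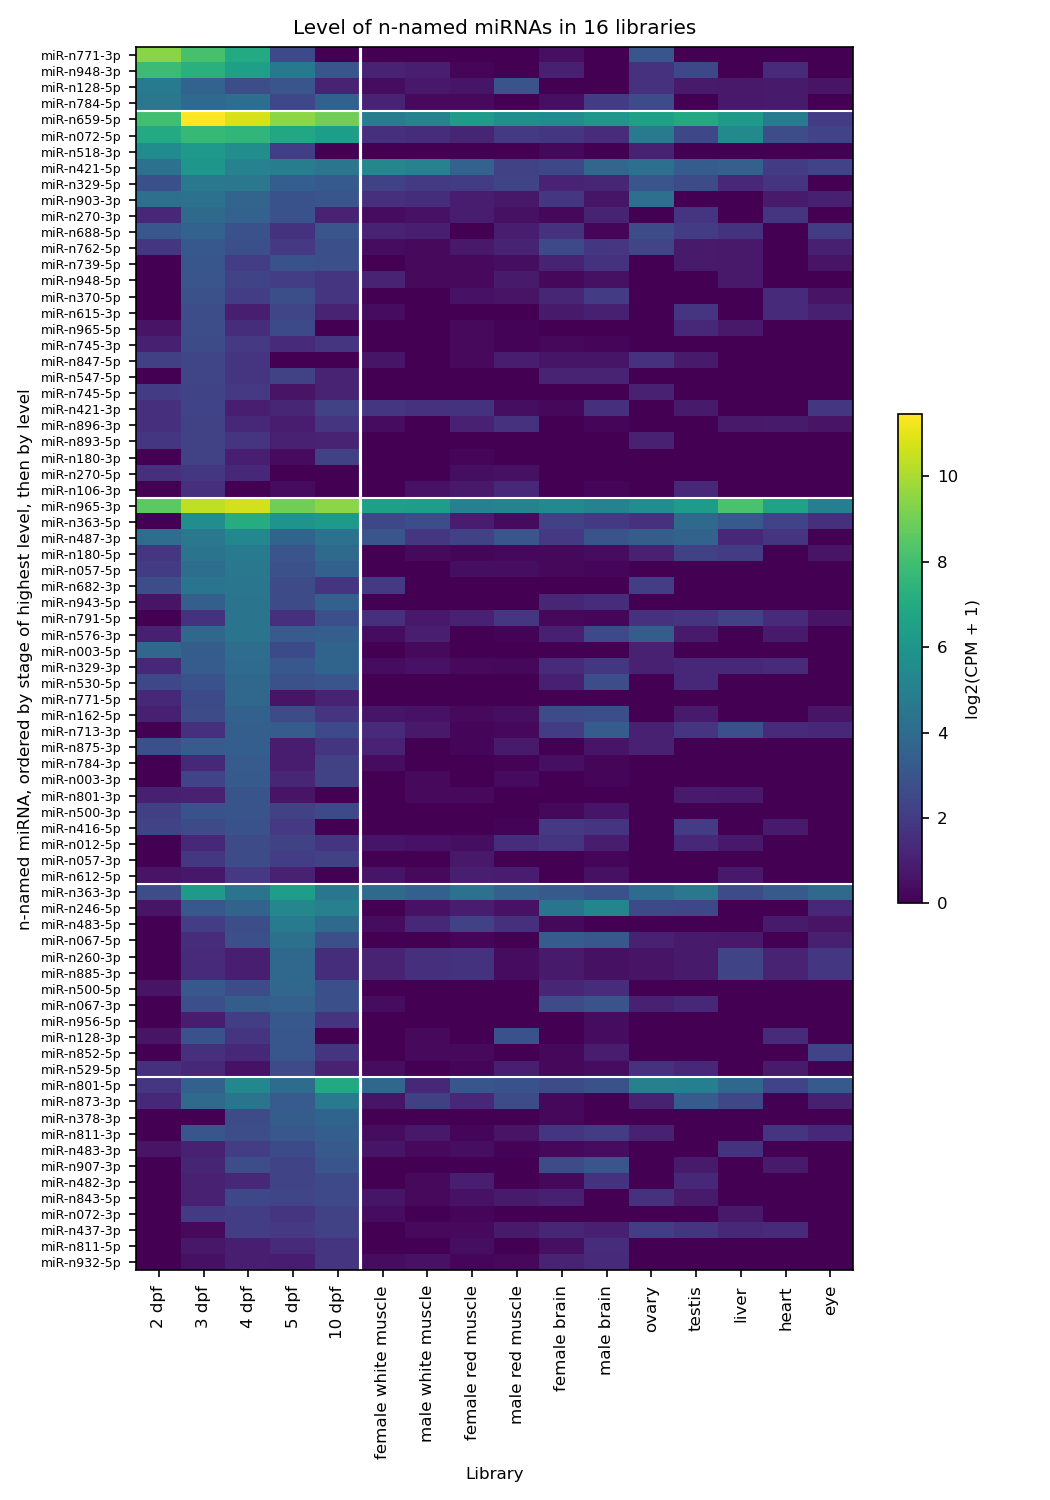
Level of each of the 76 members (rows) in each of the 16 libraries (columns), as log2(CPM + 1) from dark (0) to bright, with white lines between stages and adults and between the members highest at 2, 3, 4, 5 and 10 dpf. The bright rows are few, led by miR-n659-5p and miR-n965-3p, and most members are dark in most adult libraries.

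Most of the reads belonged to few members. At the stages the 76 held 47708 divided reads, of which miR-n659-5p and miR-n965-3p gave 69.8% and the 5 most abundant 83.3%. Summed over the members, the stage levels in order of age, from 2 to 10 dpf, were 1920, 5465, 4572, 1960 and 1900 CPM. In the adult libraries the sum lay between 93.7 CPM in eye and 479 CPM in liver, by CPM below that of each stage. These sums were not made with TMM factors. As the factor was 0.203 at 2 dpf and 1.34 to 3.20 at the other stages, the order of the stages in the sum holds for CPM only. The peak level was 100 CPM or more in 7 members, from 10 to 100 CPM in 31 and under 10 CPM in 38, with a median of 9.97 CPM and a lowest value of 1.95 CPM. In 11 members the peak rested on under 10 reads.

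miR-n659-5p was the most abundant. In order of age its stage levels were 251, 2822, 1726, 741 and 501 CPM, and in the adult libraries it ran from 2.99 CPM in eye over a median of 51.8 to 121 in testis. It was thus above the highest adult library at every stage, and its peak of 13022 reads was 23.4 times the testis level. The other arm, miR-n659-3p, had no more than 2 reads in any library. With TMM factors it was 1236 at 2 dpf and 2105 at 3 dpf on the rescaled CPM, so 3 dpf remained its highest library.

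miR-n965-3p followed, with stage levels of 376, 1335, 1645, 501 and 711 CPM in order of age. Its highest adult library was liver at 284 CPM, and its median in adults was 47.8 CPM. By CPM all 5 stages were above all 11 adult libraries, although the 2 dpf level was only 1.32 times that of liver. On the TMM scale its order turned, with 1851, 996 and 578 at the 3 earliest stages. There its 5 dpf level of 157 was below the 160 of liver, so not every stage was above all adult libraries.

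miR-n771-3p went from 694 CPM at 2 dpf over 275, 126 and 4.88 CPM to no read at 10 dpf, where a count of 0 allows up to 3.60 CPM. Among adults it had 7 reads in ovary (7.43 CPM) and 2 in female brain (0.394 CPM), and none in the other 9 libraries. The 3 earliest stages were above every adult library, and the 2 later ones were not. Its other arm, miR-n771-5p, peaked at 4 dpf with 13.0 CPM and was the single member with no read in any adult library. Against a floor of 3 reads per adult library its peak was at least 4.08-fold higher.

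miR-n948-3p and miR-n518-3p showed a like order. The first had 228, 155, 88.1, 23.6 and 7.20 CPM from 2 to 10 dpf, with 4.59 CPM in testis as its highest adult level. The second had 46.3, 69.3, 50.1, 3.25 and 0 CPM, with 1 read each in ovary and female brain and none in the other adult libraries. Both were higher in the 3 earliest libraries than in the 2 later ones.

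By CPM miR-n072-5p was more even, with stage levels of 129, 201, 187, 115 and 81.6 CPM. With TMM factors these were 637, 150, 65.8, 36.1 and 31.0, and so fell from 2 dpf on. Its adult levels ran from 1.28 CPM in female red muscle to 40.7 in liver and 25.5 in ovary, with a median of 2.69. No stage overlapped with an adult library. miR-n801-5p was the most abundant of those highest at 10 dpf, at 125 CPM, against 2.51, 10.8, 40.4 and 15.7 CPM at 2, 3, 4 and 5 dpf. Its ovary (30.8 CPM) and testis (29.8 CPM) levels lay above those of 3 of the 5 stages.

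The next members by peak level were less abundant. miR-n421-5p had stage levels of 18.1, 63.1, 32.5, 27.6 and 21.6 CPM, and its adult levels reached 39.0 CPM in female and 33.1 CPM in male white muscle, both above 4 of the 5 stages. miR-n487-3p had 16.1, 22.8, 40.4, 11.9 and 19.2 CPM at the stages and at most 11.5 CPM, in testis, among adults. The first overlapped with adult tissue over most of its range, and the second did not overlap, by a margin of 1.04 times.

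miR-n483-5p had no read at 2 dpf and then 3.25, 5.57, 26.6 and 14.4 CPM, with adult levels of at most 3.72 CPM, in female red muscle. miR-n180-5p had 2.51, 20.6, 25.98, 7.04 and 14.4 CPM, and at most 3.82 CPM, in testis. miR-n873-3p had 1.51, 14.7, 20.4, 8.94 and 25.2 CPM at the stages, and 9.17 CPM in testis and 5.12 CPM in male red muscle. By CPM all 3 were lowest at 2 dpf among the stages. From 4 dpf on, the CPM of miR-n483-5p and miR-n180-5p lay above all adult libraries. With TMM factors this order changed. There miR-n180-5p was 12.4 at 2 dpf, against 2.20 at 5 dpf and 5.66 in testis. miR-n873-3p was 7.43 at 2 dpf against 2.80 at 5 dpf, and miR-n483-5p 1.95 at 4 dpf against 4.96 in female red muscle.

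**Figure D2:**
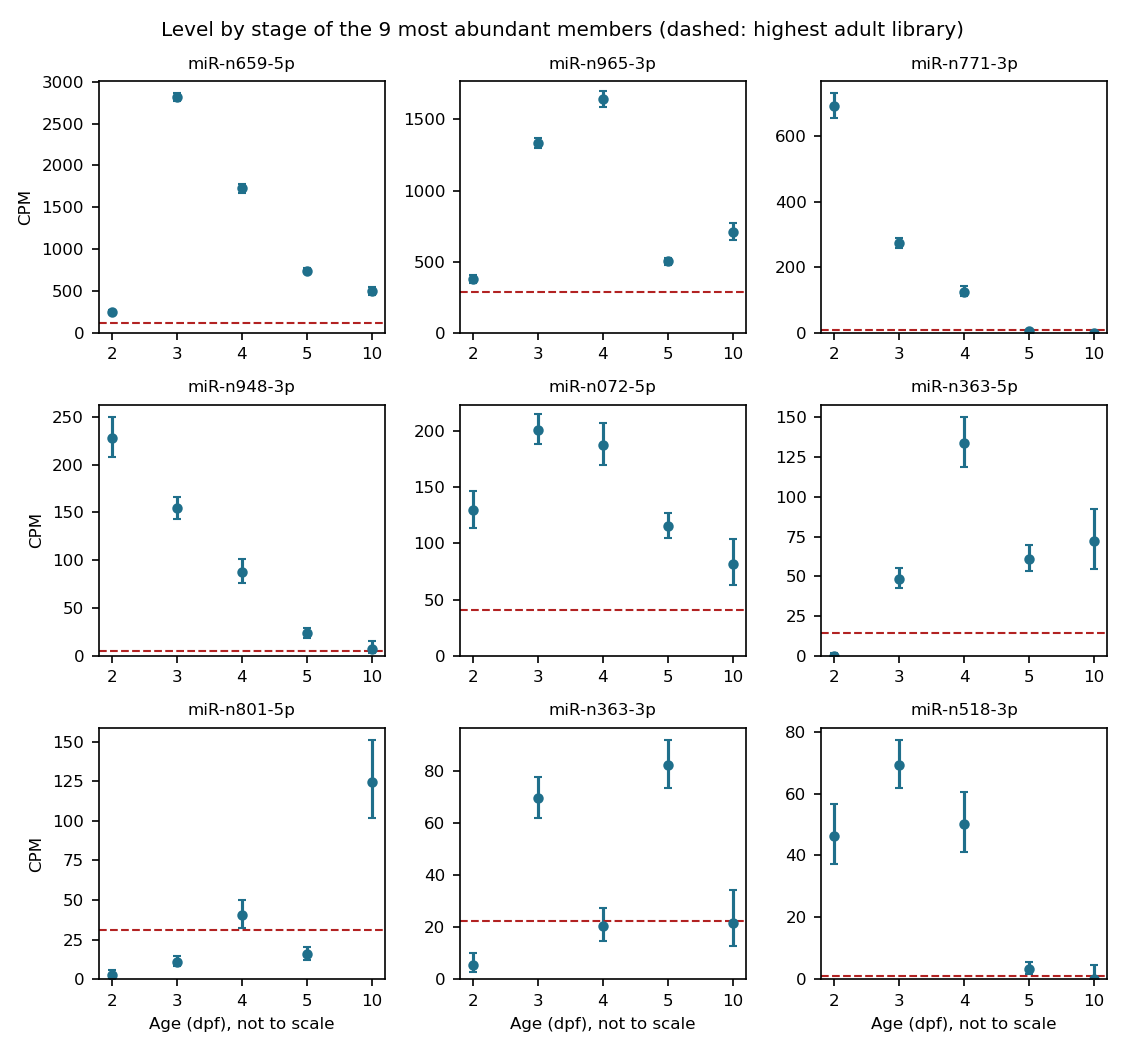
CPM of the 9 most abundant members at 2, 3, 4, 5 and 10 dpf (points, 1 library each), with exact 95% Poisson intervals that cover counting error only and the level of the highest adult library as a dashed line. miR-n771-3p and miR-n948-3p go down from 2 dpf on, miR-n659-5p and miR-n965-3p are highest at 3 and 4 dpf, and miR-n801-5p at 10 dpf.

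In 11 of the 76 members all 5 stages were above all 11 adult libraries, against 6.44% of the 481 names of all kinds (31 names), a contrast that the choice of members used. Besides miR-n659-5p, miR-n965-3p, miR-n948-3p, miR-n072-5p and miR-n771-5p these were miR-n487-3p, miR-n057-5p, miR-n003-5p, miR-n500-3p, miR-n745-3p and miR-n893-5p. miR-n057-5p had 3.02, 16.7, 23.2, 6.23 and 10.8 CPM from 2 to 10 dpf and at most 0.348 CPM in an adult library. Some of the 11 rest on few reads at their lowest stages. miR-n893-5p had 4 reads at 5 dpf (1.08 CPM) against 1 in ovary (1.06 CPM). miR-n745-3p had 2 reads each at 2 and 10 dpf, and miR-n771-5p had 2 at 5 dpf and 1 at 10 dpf. Without the 2 dpf library, where 30 of the members had no read, the number with all stages above all adults was 28. With TMM factors it was 7, without miR-n965-3p, miR-n948-3p, miR-n487-3p and miR-n893-5p. Neither count was made over all names. The exact 95% Poisson intervals of the peak and of the highest adult library were apart in 42 members and not apart in 34, so for the latter the order of stage and adult was not resolved by counting alone. Adult libraries other than the highest were not compared, and the choice of members used this contrast, so intervals that are apart are no support for it. The intervals were computed for members only, so no share over all names stands beside the 42. In miR-n500-3p, among those apart, the lower bound of the peak was 3.89 CPM. The highest upper bound over its adult libraries was 3.92 CPM.

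Where a member had its highest adult level varied. It was brain in 23 members, muscle in 16, ovary in 16, testis in 12, liver in 7, heart in 1 and eye in 1. The 16 of muscle include miR-n771-5p, which had no adult read and so has no highest adult tissue. Some ovary entries rest on 1 read, worth 1.06 CPM there, as in miR-n518-3p, miR-n003-5p, miR-n745-5p and miR-n893-5p. The tally was not made over all names. Reads were found in all 5 stages for 37 members and in all 11 adult libraries for 11. Close to the edge of the rule, miR-n907-3p had 7.20 CPM at 10 dpf, from 6 reads, and 7.09 CPM in male brain, and miR-n246-5p had 38.1 CPM at 5 dpf and 37.2 in male brain. miR-n903-3p had 18.4 CPM at 3 dpf and 17.0 in ovary. Just outside lay miR-n106-5p with 9.56 CPM at 2 dpf and 10.1 in male red muscle, miR-n741-5p with 19.5 CPM at 4 dpf and 21.5 in liver, and miR-n907-5p with 14.4 CPM at 5 dpf and 16.1 in male brain. For the read minimum, the nearest members had 10 reads (miR-n437-3p and miR-n612-5p) or 11 reads (miR-n932-5p), while miR-n873-5p with 8 reads and miR-n688-3p and miR-n875-5p with 6 reads each were left out.

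Whether members changed with age among the stages was asked by a slope on the log2 of the day, fitted over all names of the 5 stage libraries with edgeR's quasi-likelihood test. The levels in these same libraries also chose the members, so their slopes and calls are given as a description, and nothing is read from how many passed. Of the 76 members 55 had enough reads to be tested, 10 fell with age at an adjusted p under 0.05, and 0 rose, where over all 392 names tested 8.42% fell and 1.79% rose. At an unadjusted p under 0.05 there were 23 members, of which 1 had a positive slope, a count not made over all names. DESeq2 called 12 members falling and 0 rising, and of all 392 names 41 falling and 22 rising. The calls depended on the scaling. TMM factors in this fit were 0.154 at 2 dpf and 1.30 to 2.11 at the other stages, and with library totals in place of all 5 of them no name of any kind passed. The median slope was −0.91 over the tested members and 0.05 over all names, and with library totals 0.01 and 1.05.

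The steepest was miR-n771-3p, with a log2 slope of −7.38 per doubling of age (SE 0.93) and an edgeR adjusted p of 2.48e-12. miR-n518-3p had a slope of −5.11 (SE 0.98, edgeR adjusted p = 2.34e-05) and miR-n948-3p of −3.92 (SE 0.67, edgeR adjusted p = 1.92e-06). These 3 kept their call in 13 of 14 alternatives, among them the fit without the 2 dpf library. They lost it with library totals, where their slopes were −5.41, −3.73 and −2.55 at edgeR adjusted p of 0.198, 0.325 and 0.325, the highest over the alternatives. The lowest adjusted p, all from DESeq2's Wald test, were 5.23e-13 for miR-n771-3p and 9.80e-07 for each of the other two. As the levels in these libraries also chose the members, these p-values describe the fit and nothing more is read from them.

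The other 7 that fell were miR-n128-5p (−4.02), miR-n416-5p (−3.42), miR-n875-3p (−2.62), miR-n682-3p (−2.35), miR-n903-3p (−2.33), miR-n784-5p (−2.18) and miR-n072-5p (−1.94), as log2 slopes per doubling of age. All kept a negative slope with library totals, from −1.97 for miR-n128-5p to −0.66 for miR-n072-5p, and none passed there. Without the 2 dpf library, and likewise without the 4 dpf library, only miR-n771-3p, miR-n518-3p and miR-n948-3p of the members passed. miR-n128-5p had 24.6, 11.1, 5.57, 7.04 and 1.20 CPM from 2 to 10 dpf, and 6.60 CPM in male red muscle against 0.581 in female red muscle. A p over the threshold does not show that the other 45 held still.

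**Figure D3:**
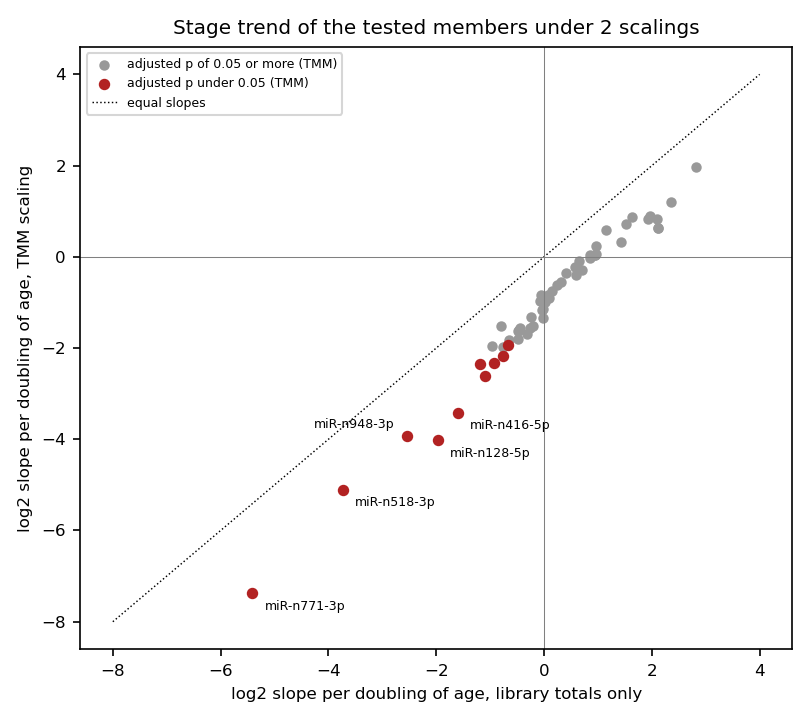
Log2 slope per doubling of age of the 55 tested members with TMM factors (vertical axis) and with library totals (horizontal axis), red where the edgeR adjusted p with TMM factors was under 0.05. All points lie below the dotted line of equal slopes, the 10 red ones are negative on both axes, and miR-n771-3p is at −7.38 and −5.41.

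Within the adult tissues, which the rule did not compare with each other, brain was compared with muscle, as the average of the white and red muscle groups, over 6 libraries. Of the 76 members 25 had enough reads. Of these, 8 were higher in brain, 2 were lower and 15 did not pass at an edgeR adjusted p under 0.05, where 30.1% of all 365 names tested were higher and 32.9% lower. Of the 25, 8 met the read minimum only in brain libraries and 5 only in muscle libraries. Among them were 7 of the 8 that were higher and both that were lower. The other higher one, miR-n762-5p, met it in 2 brain libraries and 1 muscle library. As the filter asks for 2 libraries, its brain libraries alone were enough for it to be tested. The filter favours a difference in a member that is tested only through the tissue where it is high. Of such members, 1 of the 8 brain-only and 3 of the 5 muscle-only ones did not pass. These counts, and the p-values given below for such members, describe the members and nothing is read from them.

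miR-n907-3p had 5.31 CPM in female brain, 7.09 CPM in male brain and no read in the 4 muscle libraries. miR-n067-5p had 9.25 and 7.53 CPM in brain and at most 0.116 CPM in muscle, and its other arm, miR-n067-3p, 5.12 and 6.64 CPM in brain and at most 0.282 in muscle. The groups did not overlap for any of these, and the log2 differences of brain from muscle were 7.98 (SE 1.25), 7.42 (SE 1.16) and 6.37 (SE 1.10), with edgeR adjusted p of 0.000252, 0.00017 and 0.00039. Fitted differences of miRNAs with no read in a group rest on the prior count and are no bound.

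miR-n246-5p was the most abundant of the brain members, with 20.8 CPM in female and 37.2 CPM in male brain against 0 to 0.871 CPM in muscle (log2 difference 5.56, SE 0.84, edgeR adjusted p = 9.87e-05). At the stages it had 0.503, 7.80, 11.4, 38.1 and 31.2 CPM, so that by CPM its levels at 5 and 10 dpf were near those of adult brain. With TMM factors they were 11.9 and 11.8, below the 22.6 of female and 38.0 of male brain. miR-n416-5p had 2.75 and 2.36 CPM in brain and at most 0.0868 in muscle (log2 difference 5.69, SE 1.27, edgeR adjusted p = 0.00212). Its stage levels were 4.02, 5.42, 6.50 and 2.71 CPM at 2, 3, 4 and 5 dpf, with no read at 10 dpf. These 5 kept their call in all 11 alternatives in which they were tested. All 5 met the read minimum only in brain libraries, so this describes them and is no support for a difference.

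miR-n162-5p (log2 difference 3.17), miR-n713-3p (3.16) and miR-n762-5p (2.23) were higher in brain by less. In miR-n762-5p the brain levels were 4.72 and 2.51 CPM and those of muscle 0.233 to 1.22, and its call was lost in 9 of 13 alternatives. Lower in brain were miR-n873-3p, with 0.197 CPM in female brain and no read in male brain against 0.565 to 5.12 CPM in muscle, and miR-n483-5p, with 0.197 CPM and no read against 0.282 to 3.72 CPM. Their log2 differences were −5.22 (SE 1.51) and −4.34 (SE 1.32), at edgeR adjusted p of 0.00879 and 0.012. With the same names tested and the male brain library left out, 5 members were higher and 0 lower, and the calls of miR-n713-3p, miR-n162-5p, miR-n762-5p, miR-n873-3p and miR-n483-5p were lost. Without the female brain library 6 were higher and 2 lower, with miR-n162-5p and miR-n762-5p lost. The red blood cell list (miR-144 and miR-451) summed to 599 and 907 CPM in male and female brain and to 1597 to 16962 CPM in muscle, and the Hox cluster list (miR-10 and miR-196) to 27788 CPM in female and 1900 CPM in male brain, so that the brain libraries stood apart there, against 117382 to 224187 CPM in muscle. The part of both lists in these differences was not tested.

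**Figure D4:**
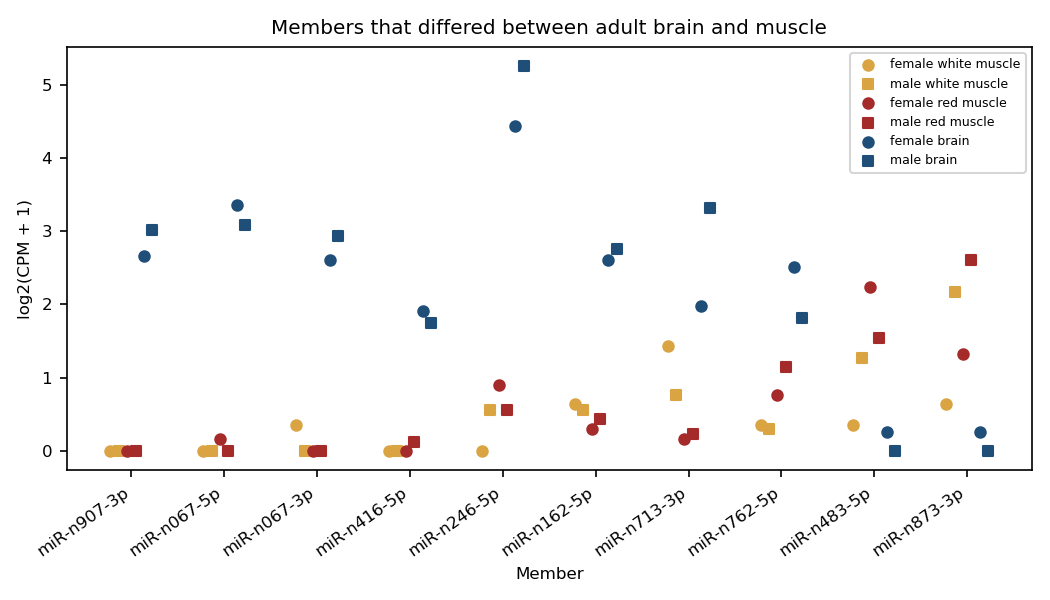
Level, as log2(CPM + 1), of the 10 members that differed between adult brain and muscle, in each of the 2 white muscle, 2 red muscle and 2 brain libraries (circles female, squares male). The brain points lie above all muscle points for the 8 members on the left and below all of them for miR-n483-5p and miR-n873-3p. The members were picked by a test on these same libraries, so this is a description. All but miR-n762-5p met the read minimum only in the tissue where they were higher. How many of all names tested are apart in this way was not counted.

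miR-n943-5p and miR-n500-5p also had reads in brain and in no other adult library, with 7 reads each in female and 12 each in male brain, too few to be tested. These identical counts came with different stage counts, of 46 and 35 reads at 3 dpf and 20 and 47 at 5 dpf. Their brain levels were 1.38 and 1.77 CPM, against peaks of 20.4 CPM at 4 dpf for miR-n943-5p and 12.7 CPM at 5 dpf for miR-n500-5p.

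Between red and white muscle, 1 of the 25 tested members differed and 0 were higher in red muscle, where 4.66% of all names tested were higher and 6.03% lower in red muscle. At an unadjusted p under 0.05 there were 3 members, a count not made over all names. DESeq2 called 2 members lower, and of all 365 names 32 lower and 30 higher in red muscle. miR-n363-5p had 4.52 (female) and 5.83 CPM (male) in white muscle, and 0.813 (female) and 0.260 CPM (male) in red muscle. The log2 difference of red from white was −3.25 (SE 0.96, edgeR adjusted p = 0.0487), and the call was lost in 9 of 11 alternatives. Its other arm, miR-n363-3p, had 14.4 and 10.5 CPM in white and 19.2 and 10.5 CPM in red muscle, a log2 difference of 0.31 (SE 0.77, edgeR adjusted p = 0.859).

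The partner arm of each member was also named, and in 19 hairpins both arms were members, 7 of them with the same stage as their highest. The other 38 members had a partner that was not chosen, of which 26 were under 10 reads and 12 were highest in an adult tissue. The share of the 5p arm among the reads of a hairpin is given with 95% Wilson intervals where a library held at least 20 reads of it. Since it comes from the counts that chose the members, it is a description. A share within a hairpin does not depend on the scaling of the library.

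The 19 hairpins with both arms chosen were mir-n003, mir-n057, mir-n067, mir-n072, mir-n128, mir-n180, mir-n270, mir-n329, mir-n363, mir-n421, mir-n483, mir-n500, mir-n745, mir-n771, mir-n784, mir-n801, mir-n811, mir-n948 and mir-n965. One arm gave most reads in many of them. The 5p share was 95.8% or more in every library with enough reads in mir-n072, 83.6% or more in mir-n421 and 85.3% or more in mir-n801, and 1.92% or less in mir-n965. At the stages it was 84.8% to 96.6% in mir-n180, 75.0% and 84.5% in mir-n483, 66.0% to 100% at the locus mir-n003-1 and 65.7% to 86.5% in mir-n057. The 5p reads of mir-n003 counted in full at each of its 3 loci, 43 at 3 dpf, while the 18 3p reads there fell to mir-n003-1 alone. Which arm led at that locus thus cannot be told. At mir-n003-2 and mir-n003-3 the share was 90.0% to 100%. mir-n500 was more even, with 53.8%, 42.3% and 77.0% at 3, 4 and 5 dpf, and mir-n745 had 44.2% at 3 dpf.

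mir-n329 had a 5p share of 71.8% (64.1 to 78.4), 59.3% (48.4 to 69.3) and 56.3% (44.1 to 67.7) at 3, 4 and 5 dpf. In adults it was 93.1% (78.0 to 98.1) and 96% (86.5 to 98.9) in the female and the male library of red muscle, against 33.3% (18.6 to 52.2) in male brain. The intervals of these tissues were apart, but that of male brain includes an even share, so its leading arm was not resolved. In mir-n270 the 3p arm led at 3, 4 and 5 dpf, with 5p shares of 15.2%, 11.1% and 0% (0 of 24 reads, up to 13.8%). mir-n811 had 8.11% (2.80 to 21.3) at 3 dpf, 17.6% (8.35 to 33.5) at 5 dpf and 37.5% (22.9 to 54.7) in male brain, where only the intervals of 3 dpf and male brain were apart.

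In mir-n771 the 3p arm dominated, and the 5p share was 0.217% (0.0739 to 0.636) at 2 dpf. At the following stages it was 1.78% (1.19 to 2.66), 9.36% (6.56 to 13.2) and 10.0% (2.79 to 30.1). Its intervals at 2, 3 and 4 dpf did not overlap. mir-n948 had a 5p share of 0% at 2 dpf (0 of 454 reads, up to 0.839%) and of 4.42%, 4.52% and 12.1% at 3, 4 and 5 dpf. In mir-n128-1 the share went the other way, with 98.0% (89.5 to 99.6), 62.5% (51.5 to 72.3) and 48.1% (35.1 to 61.3) at 2, 3 and 5 dpf. Its 3p reads at 3 and 5 dpf counted in full at the locus mir-n128-2 too, where the share was 11.8% and 12.9%.

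In mir-n067, whose arms were both higher in adult brain than in muscle, the 5p share was 22.9% (12.1 to 39.0), 39.4% (24.7 to 56.3) and 63.1% (53.5 to 71.8) at 3, 4 and 5 dpf. The 3p arm gave most reads at 3 dpf and the 5p arm at 5 dpf. mir-n784 had 100% 5p reads at 2 dpf (45 reads, lower bound 92.1), and the share was 90.4%, 65.5% and 85.0% at 3, 4 and 5 dpf.

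mir-n363 changed its leading arm back and forth. At its locus mir-n363-1 the 5p share was 41.3% (37.3 to 45.5) at 3 dpf and 42.5% (38.4 to 46.8) at 5 dpf, against 86.8% (82.7 to 90.0) and 76.9% (66.4 to 84.9) at 4 and 10 dpf. Accordingly miR-n363-5p had 0, 48.5, 134, 61.0 and 72.0 CPM from 2 to 10 dpf and miR-n363-3p 5.53, 69.6, 20.4, 82.4 and 21.6 CPM. In adults the 5p share was 23.9% in the female and 34.8% in the male library of white muscle, 4.07% and 2.42% in those of red muscle, and 30.6% and 30.2% in those of brain, with intervals of red muscle (0.826 to 8.16) below those of white muscle (15.3 to 46.6).

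miR-n260-3p and miR-n885-3p had the same values in all libraries, which were 0, 1.63, 0.928, 13.8 and 1.80 CPM at the stages. The arm counts of both hairpins were identical too, so they are not independent values. Their hairpins had 5p shares of 40.0%, 81.0%, 48.5% and 91.2% at 3, 4, 5 and 10 dpf, the same order as mir-n363. This order was noticed after the values were seen. Of 255 hairpins of all kinds with 20 reads at 3, 4, 5 and 10 dpf, the 5p intervals at 3 and 5 dpf lay below those at 4 and 10 dpf in 30 and above them in 43, and of the 15 such hairpins with a member, in 6 and in 0. These 6 are the loci of mir-n363, mir-n260 and mir-n885, and they are not independent. A read counted in full at each locus, so that mir-n363-1 and mir-n363-2 both held 224 5p reads at 3 dpf. Nothing is therefore read from 6 of 15. In levels, 11 members had 3 and 5 dpf both above 4 and 10 dpf (12.7% of all 481 names did) and 15 had both below (22.0% of all names did). Whether the 3 and 5 dpf libraries differ in handling from those at 4 and 10 dpf was not tested.

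**Figure D5:**
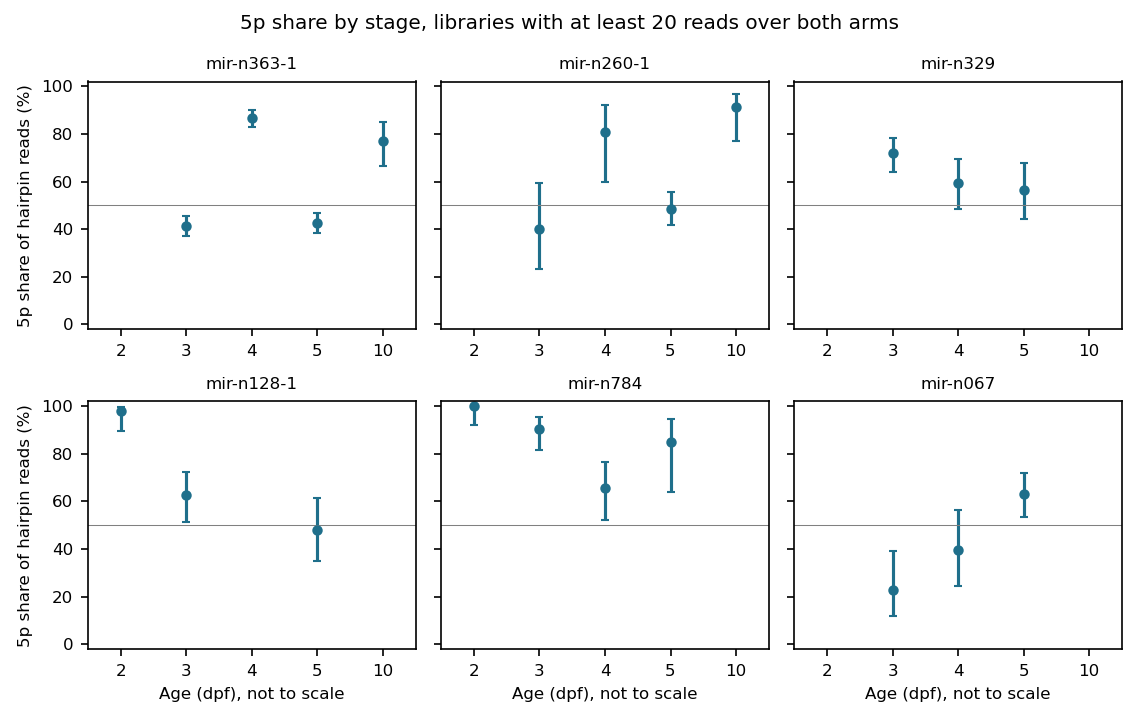
Share of 5p reads (percent) among the reads of 6 hairpins by stage, with 95% Wilson intervals, shown where a library held at least 20 reads over both arms. In mir-n363-1 and mir-n260-1 the share is higher at 4 and 10 dpf than at 3 and 5 dpf, while in mir-n067 it goes from 22.9% at 3 dpf to 63.1% at 5 dpf.

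Of the 76 members 8 lie at several loci, with 3 loci for both arms of mir-n003. The arms of mir-n363 and mir-n128 have 2 loci, as do miR-n260-3p and miR-n885-3p. Which locus gave the reads cannot be told apart where the mature arms are the same. Some reads were also shared with loci outside the name. miR-n260-3p and miR-n885-3p each had 470 whole-number and 117.5 divided reads, less than a division over 2 loci leaves. miR-n246-5p had 661 and 614 at its 1 locus. The conserved names most like the 5 most abundant members were sought by Pearson's r of log2(CPM + 1) over the 16 libraries, whose points share depth and the 2 dpf composition. For miR-n659-5p they were miR-18a-3p (r = 0.91), miR-181a-3p-3 (r = 0.90) and miR-25-5p (r = 0.89), and for miR-n965-3p miR-199a-5p (r = 0.93), miR-19d-5p (r = 0.92) and miR-200a-5p (r = 0.92). miR-n771-3p and miR-n948-3p had the same 3 names, miR-92a-5p-2 (r = 0.85 and 0.90), miR-10d-3p (r = 0.85 and 0.94) and miR-219-3p (r = 0.82 and 0.88). For miR-n072-5p they were miR-125b-3p (r = 0.94), miR-92a-5p (r = 0.94) and miR-92a-5p-2 (r = 0.92).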

How the data were processed

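Small RNA from 16 libraries of Nile tilapia was extracted with Trizol, prepared with the TruSeq small RNA kit and sequenced on the Illumina GAIIx. Per locus and arm, the authors deposited whole-number counts, to which a read adds 1 at each of its loci, and estimated counts, which share such a read out among them. Neither is normalized. The tool used for counting is not stated in the labels or the paper. The submitters' processing notes name DESeq. Of 736 lines per file, 2 without a mature name held 0 reads and were left out. CPM came from divided counts summed per name. Poisson and Wilson intervals at 95% and floors of 3 reads cover counting error only.

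Tests used the whole-number counts at 1 locus per name, the one with most reads, with glmQLFit and glmQLFTest of edgeR 4.0.16 and its TMM factors under R 4.3.3, and Benjamini-Hochberg adjustment over all entries that held 10 reads or more in 2 or more of the fitted libraries, at a threshold of 0.05. Standard errors are the absolute log2 value divided by the square root of F and are approximate. With 1 library per stage, the spread of the slope is that around the fitted line. The replicates of a tissue are a female and a male library, so they come from different animals, and p-values measure the spread between these libraries, sex included. DESeq2 1.42.0, other scalings, filters, sex as a block and libraries left out were alternatives. Tests were checked on simulated counts, with the same mean composition in every library apart from the entries changed on purpose. The 2 dpf composition was not simulated, so that check does not cover the scaling of the stage slopes. Python 3.11.15 with numpy 2.4.6, scipy 1.17.1, pandas 2.3.3 and matplotlib 3.10.9 gave the other values.

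The members and lists were chosen with earlier results of these data known. Members named are the 15 with the highest peak, those past a test, those above all adults at all stages, hairpins with both arms chosen, and the 3 nearest to each edge of the rule, with a few others chosen after their values were seen.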

Additional observations from a re-analysis of the deposited data

How the results depend on the processing

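No named call reversed its direction under an alternative. The 10 members falling with age became 5 with a slope on the day, and 6 falling and 1 rising with 2 and 3 dpf set against the later stages. Of all 392 names, 14 fell and 3 rose in the former fit, and 20 fell and 5 rose in the latter. Leaving out a stage gave 3 to 10 falling members, 3 without 2 dpf, 6 without 3 dpf and 3 without 4 dpf. In the last 3 fits 55, 43 and 47 members were tested. Of all names tested there, 8 of 391, 16 of 366 and 5 of 380 fell. In alternatives added after the data were seen, 4 members fell without 3 and 5 dpf, 3 without 4 and 10 dpf, and 0 with library totals. In these 3 fits 25, 46 and 55 members were tested, and 12 of 320, 9 of 364 and 0 of 392 names fell. The cause of these changes was not tested, and the fits that left out stages also had fewer libraries. For brain against muscle, no filter on low counts gave 13 higher and 4 lower members in place of 8 and 2. It tested 73 members, and of all 542 names then tested 124 were higher and 134 lower. Leaving out a library gave 0 to 9 higher and 0 to 5 lower (5 without male red muscle, 1 without male white muscle or female brain, 0 without male brain), with 0 higher without either brain library, since the filter on 2 libraries then left 15 or 16 members tested. With the names of all 6 libraries kept, which was added later, leaving out a brain library gave 6 and 5 higher and 2 and 0 lower. The 1 member lower in red muscle became 0 with DESeq2 size factors, with no filter on low counts and with divided counts, 2 with the DESeq2 Wald test, and 0 to 2 with a library left out. The number of members was 80 with a minimum of 5 reads, 58 with 20 reads, 78 with CPM from whole-number counts (75 of the 76 among them), 63 with TMM factors, and 67 to 76 with a stage left out. Members above all adults at all stages, 11 in number, were 7 with TMM factors and 9 to 28 with a stage left out. A replicate block was added after the data were seen, with sex, which is also the replicate number, as a term over the 6 muscle and brain libraries. With it 7 members were higher and 1 lower in brain (calls lost for miR-n762-5p and miR-n483-5p) and 0 lower in red muscle. Of all 365 names, 107 were then higher and 109 lower in brain, and 17 lower in red muscle. The female-minus-male differences of the 3 tissues correlated across the 365 names at −0.41, −0.16 and 0.01. These values cannot tell whether libraries of the same sex came from the same animals, and pairing by animal was not tested. The stage slope has no shared numbers. Depth limits the 38 members with a peak under 10 CPM most.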
